A study of Mus musculus with 6 samples.

Results

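The genes described here encode the proteins of the cytosolic ribosome, measured in MC38 cells, a mouse tumour line labelled as colon adenocarcinoma. They were taken by symbol, as every gene named Rpl or Rps with a number and an optional closing letter a, x, l or y and digit, together with Rplp0, Rplp1, Rplp2 and Rpsa. This gave 88 genes of the 24181 in the deposited count table, 53 named for the large subunit and 35 for the small subunit. Of these, 77 are the canonical ribosomal protein genes (46 large, 31 small), 7 are paralogs of a canonical gene (Rpl3l, Rpl7l1, Rpl10l, Rpl22l1, Rpl32l, Rpl39l and Rps27l), and 4 are pseudogenes in RefSeq (Rpl6l, Rps3a2, Rps3a3 and Rps12l1). RefSeq lists Rpl32l as protein coding, whereas GENCODE M21 lists it as a processed pseudogene.

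The series set parental MC38 cells (genotype WT) beside MC38 cells that express STING-N153S, a mutant of the innate immune adaptor STING, in standard DMEM, with 3 samples labelled in each group. The libraries were made from poly(A) RNA by SCRB-seq, a bulk method in which an oligo-dT primer carries the sample barcode and a molecular identifier, so that reads come from the 3′ end of each transcript. The values below are from the 3 parental libraries. The comparison with the STING-N153S cells was not analysed here, because the further columns of the table could not be tied to those samples by their labels, and no difference between genotypes is given.

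The eukaryotic ribosome joins a small subunit, which reads the mRNA, to a large subunit, which forms the peptide bond, and nearly every ribosomal protein is present in a single copy in it. The mRNAs of most of these proteins begin with a 5′ terminal oligopyrimidine (TOP) tract, a C followed by an unbroken run of C and T, through which the mTORC1 pathway and the La-related protein Larp1 control their translation together. In a growing cell line these mRNAs are among the most abundant of all, and their genes have left many processed pseudogenes in the mammalian genome.

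The 3 libraries held 3358908, 4020023 and 3210024 counts, so that 3 counts, taken as the floor of detection, are 0.893, 0.746 and 0.935 counts per 1000000 (CPM) in parental replicates 1, 2 and 3. Levels are CPM of the library total. They were not divided by transcript length, because each molecule is tagged once at its 3′ end, and across the 77 canonical genes the level and the median annotated transcript length had a Spearman correlation of -0.24, given as a description. Intervals, floors and count tests cover counting error only, and since nothing in the labels says that the replicates are separate cultures, p-values measure the spread between these libraries, which may be technical. Defining markers of colon epithelium were at or near 0 in all libraries (0 of 5 genes analysed of 12 listed reached 1 CPM, summed level 0 to 0.595 CPM, with Cdx1 and Lgr5 at 0 counts), as were those of leukocytes (0 of 3 analysed of 5 listed, 0 to 0.298 CPM), endothelium (0 of 2, 0 to 0.595 CPM) and melanocytes (0 of 1 analysed of 2 listed, 0 to 0.312 CPM). The fibroblast genes Dcn, Pdgfra and Col1a1 were all above 1 CPM, with a summed level of 64.2 to 71.7 CPM. The 5 epithelial markers analysed were thus below what the label would give, the other 7 were not analysed here, and the part of this in the levels below was not tested.

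The TOP tract is read at the first base of the mRNA, so the annotated start sites were examined for it. Of the 88 genes, 64 matched the RefSeq promoter table (GRCm38.p6). In 14 of these 64 (21.9%) the annotated first base was a C followed by at least 4 bases of C or T, against 3.01% of all 27025 genes in the table; a gene was counted when any of its entries had the feature. The windows below, of 15 bases on each side of the start, show 8 of the 14, chosen to show tracts at high and at low levels, from the most to the least abundant mRNA, with the C/T tract that begins at the annotated first base in capitals. Their coordinates are chr17:33955651-33955680 (minus strand) for Rps18, chr3:90213634-90213663 (minus) for Rps27, chr7:141447636-141447665 (plus) for Rplp2, chr11:114668565-114668594 (plus) for Rpl38, chr16:33056467-33056496 (plus) for Rpl35a, chr2:39005117-39005146 (minus) for Rpl35, chr4:86857353-86857382 (minus) for Rps6 and chr14:18270972-18271001 (minus) for Rpl15.
Rps18: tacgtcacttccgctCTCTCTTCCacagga
Rps27: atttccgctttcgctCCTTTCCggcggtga
Rplp2: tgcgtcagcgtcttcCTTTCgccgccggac
Rpl38: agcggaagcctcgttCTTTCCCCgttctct
Rpl35a: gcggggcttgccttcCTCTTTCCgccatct
Rpl35: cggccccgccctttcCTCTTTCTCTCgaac
Rps6: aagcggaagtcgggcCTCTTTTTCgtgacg
Rpl15: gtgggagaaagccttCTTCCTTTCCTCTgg

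The 14 genes with such a tract span 3510 CPM for Rps18 to 3.68 CPM for Rpl32l, and the 8 shown reach down to 154 CPM for Rpl15. Over the same windows, a C/T run of at least 8 bases stood anywhere on the gene's strand in 28 of 64 genes (43.8%, against 13.9% of all genes). The motif CTTTC, searched on the gene's strand, was in 17 (26.6%, against 4.76%), and CTCTTT, which can overlap it, was in 8 (12.5%, against 1.33%). In the whole 300-base window, from 250 bases before the start to 50 after it and on both strands, CCGGAAG (the ETS motif) was in 26 genes (40.6%, against 9.93%) and AAGATGGC (the YY1 motif) in 6 (9.38%, against 3.19%). These matches are descriptions of the annotated windows and depend on where RefSeq sets the first base.

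The 88 genes together held 12.9%, 12.6% and 12.9% of the counts of parental replicates 1, 2 and 3, with exact (Clopper-Pearson) 95% intervals of 12.87 to 12.94%, 12.59 to 12.66% and 12.87 to 12.94%. Replicate 2 was the lowest, and its interval did not meet the others. The summed level was 128123 ± 1628 CPM (SD, n = 3), of which the canonical large-subunit genes gave 67216 ± 661 CPM and the canonical small-subunit genes 59568 ± 967 CPM. The ratio of the large to the small sum was 1.127, 1.137 and 1.122 in the 3 libraries (1.13 ± 0.00778, SD, n = 3). The 7 paralogs summed to 1316 ± 27.2 CPM and the 4 RefSeq pseudogenes to 23.0 ± 1.99 CPM. In bulk RNA, fewer cells of a type and less RNA per cell cannot be told apart, which holds for every level here.

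Of the 88 genes 55 had a mean level of 1000 CPM or more, all of them canonical, and these made up 42.0% of the 131 genes at that level in the whole table. Of the 44 genes at 2000 CPM or more in the whole data, 23 were ribosomal protein genes (52.3%). They took 9 of the 20 highest places and 47 of the 100 highest. The median over the 77 canonical genes was 1529 CPM, with quartiles of 900 and 2132 CPM, against 0.941 CPM over all genes. Their levels kept nearly the same order from library to library, with Spearman correlations of 0.996 to 0.998 over the 88 genes. The genes lie on 19 chromosomes, with 4 on the X chromosome (Rpl10, Rpl36a, Rpl39 and Rps4x). The canonical genes were not at 1 level. From Rps26 to Rpl15 they spanned 33.4-fold, and the fold was 1176 once Rpl24 was included.

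**Figure D1:**
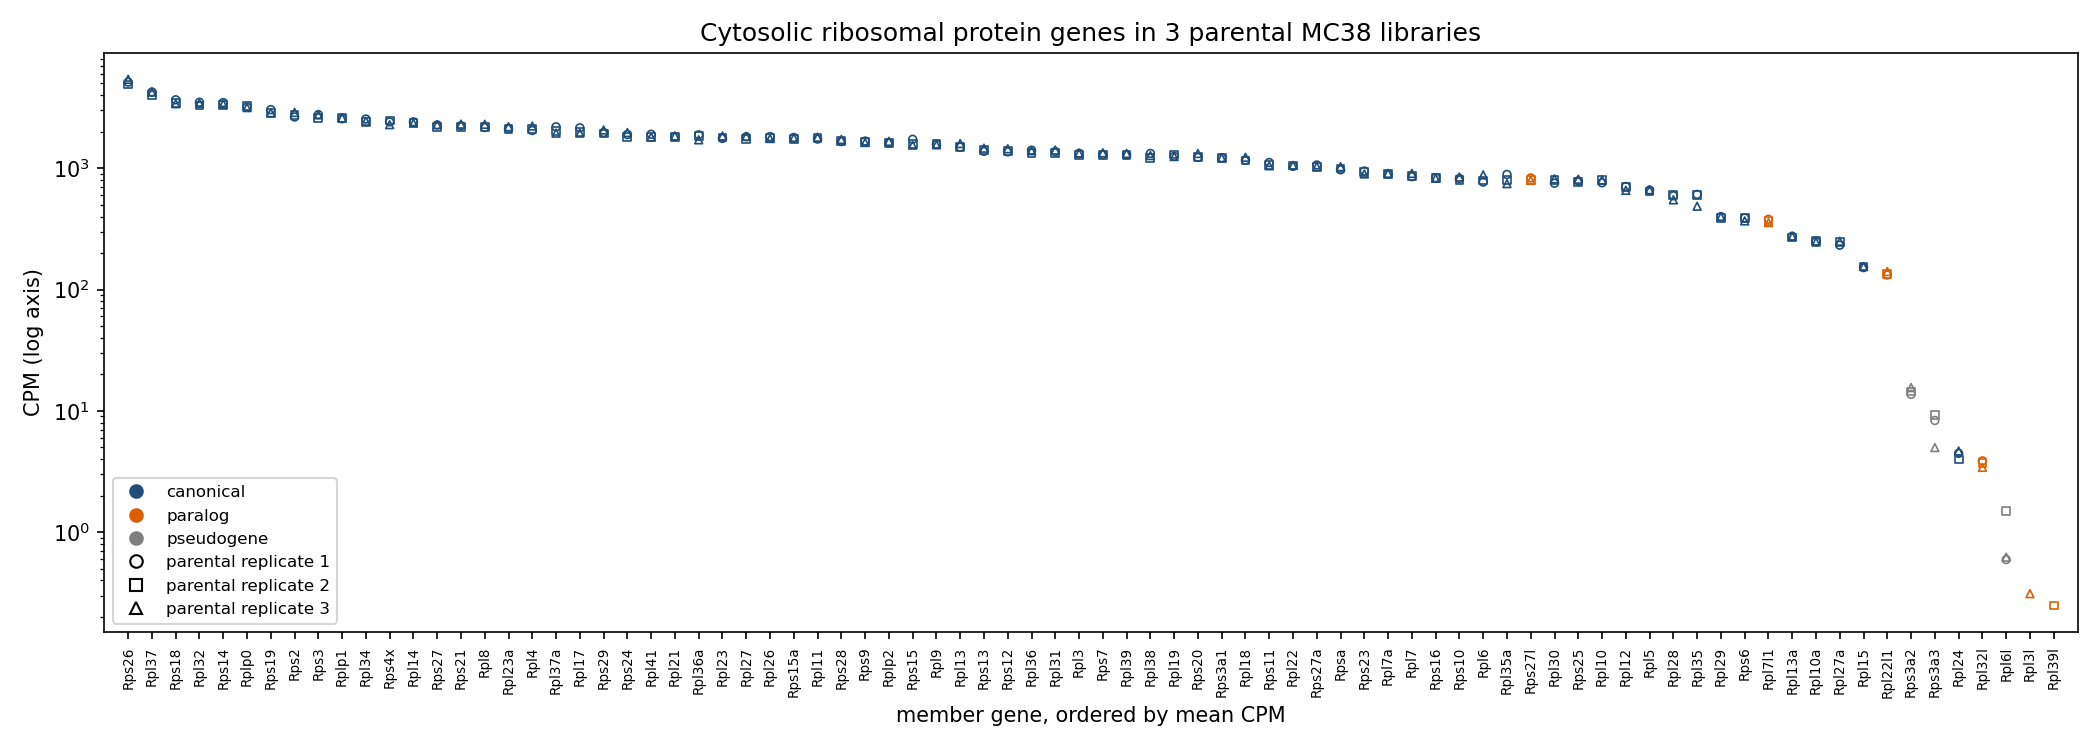
CPM of counted ribosomal protein genes in the 3 parental libraries (log axis; circle, square and triangle are replicates 1, 2 and 3; a library with 0 counts has no mark), ordered by mean. Most canonical genes lie between 500 and 5141 CPM, with Rpl24 far below the rest at 4.37 CPM, among the pseudogenes and the scarce paralogs.

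The small subunit held the highest member and 7 of the 10 highest. Rps26, whose protein lies beside the mRNA where it leaves the subunit (chr10:128624529-128626506), was at 5123, 4893 and 5407 CPM in replicates 1, 2 and 3 (5141 ± 258, SD, n = 3). Its lowest library was above the highest library of Rpl37, the next gene. Rps18, a protein of the small-subunit head, was at 3666, 3459.7 and 3405 CPM, with replicate 1 the highest. Rps14, whose loss on a deleted chromosome arm causes the anaemia of the human 5q- syndrome, was at 3475, 3299 and 3388 CPM. Rps19, the first gene found mutated in human Diamond-Blackfan anaemia, was at 3041, 2871 and 2868 CPM. Rps18, Rps14 and Rps19 were all highest in replicate 1, and the ranges of Rps18 and Rps14 overlapped.

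Rps2 and Rps3, which line the channel where the mRNA enters, were at 2645, 2737 and 2884 CPM and 2769, 2599 and 2755 CPM; their ranges overlapped and their order changed between libraries. Rps6 encodes the classic substrate of the S6 kinases, a readout of mTORC1 activity at the protein level. It was counted at 389, 388 and 368 CPM, among the lowest small-subunit values. In counts, Rps19 was 7.67 ± 0.233-fold above Rps6 (SD, n = 3). Rps6 shares most of its annotated 3′ end with other genes, as given below, so this fold is uncertain as one of mRNA levels. Rpsa, whose protein is also known as the laminin receptor, was at 971, 994 and 1029 CPM. The other small-subunit levels described here ran from 788 ± 22.5 CPM for Rps25 to 2392 ± 96.1 CPM for Rps4x, the X-linked copy of the S4 protein, and the median over the 31 canonical small-subunit genes was 1649 CPM.

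In the large subunit, the genes of the ribosomal stalk ranged from the 10 highest members down to the middle of the order. The stalk recruits the translation factors that split GTP, and consists of Rplp0 as the anchor with pairs of Rplp1 and Rplp2 bound to it. Rplp0 was at 3183, 3242 and 3162 CPM, Rplp1 at 2557, 2603 and 2601 CPM and Rplp2 at 1617, 1609 and 1667 CPM, an order held in every library without overlap. In counts, Rplp1 was 1.59 ± 0.0289-fold above Rplp2, and Rplp0 1.96 ± 0.0594-fold above Rplp2 (SD, n = 3 each). Of the 3′-end words, 33.1% were in no other gene for Rplp1, against 93.6% for Rplp2 and 100% for Rplp0. The place of Rplp1 in this order and its fold are therefore uncertain as mRNA levels. The ribosome itself holds more copies of the Rplp1 and Rplp2 proteins than of Rplp0. None of the 3 was called as varying between libraries by the chi-square test described below (adjusted p = 0.770, 0.939 and 0.463).

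Rpl37 led the large subunit at 4249.6, 4025 and 4247 CPM, followed by Rpl32 at 3498, 3289 and 3436 CPM. Rpl5 and Rpl11 bind the 5S ribosomal RNA and, outside the ribosome, hold Mdm2 away from p53. Their mRNAs were at 660.0, 642 and 664 CPM and 1741, 1770.1 and 1803 CPM, so that the partners of this particle differed by 2.703 ± 0.0607-fold (SD, n = 3). Rpl13a, which in human monocytes leaves the ribosome to silence inflammatory mRNAs, was at 275, 269 and 275 CPM. The median over the 46 canonical large-subunit genes was 1376 CPM.

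In all, 7 canonical genes were below 500 CPM and 15 between 500 and 1000 CPM. The 7 were Rpl24, Rpl15, Rpl27a, Rpl10a, Rpl13a, Rps6 and Rpl29, so 6 of them belong to the large subunit. Rpl15 was at 152, 155 and 155 CPM, Rpl10a at 248, 252 and 246 CPM and Rpl27a at 232, 246 and 250.2 CPM. Each of these was a steady value, with the 3 libraries within 1.08-fold of each other. Rpl29 was at 399, 389 and 398 CPM.

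Rpl24, a canonical large-subunit gene whose mutation gives the mouse Belly spot and tail phenotype, was counted at 4.47, 3.98 and 4.67 CPM, in all 46 counts over the 3 libraries. Rps26 was 1178 ± 44.8-fold higher (SD, n = 3). In GENCODE M21, another annotated gene on the same strand, Gm28037, covers 71.5% of the exon bases of Rpl24 and 58.3% of the last 300 bases of its transcripts. Of the 50-base words in those last 300 bases, 18.7% were found in no other gene, 65.7% were also in Gm12254 and 61.4% also in Gm9385. Gm12254 and Gm9385 were themselves at 16.0 CPM and 12.6 CPM, whereas Gm28037 is not among the 24181 genes listed. The sources used here do not say how reads that fit several genes were counted, and the Rpl24 value is uncertain as a level of its mRNA.

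The same check was made for the other canonical genes, because their processed copies can take or blur their reads. Of the 77, 62 shared at least 1 such 50-base word of their 3′ ends with another annotated gene, and 15 shared none. Rpl10, Rpl36a and Rps27 had no word of their own, yet were counted at 786 ± 23.4, 1815 ± 88.4 and 2248 ± 58.4 CPM (SD, n = 3). Their counts, and the ratios below that use them, cannot be read as levels of these genes alone. Every word of Rps27 was also in Rps27rt, which was itself at 63.7 ± 4.43 CPM. The median level was 1166 CPM in the 16 genes with under 20% unique words, 1669 CPM in the 40 genes from 20 to under 80%, and 1631 CPM in the 21 genes with 80% or more. Across the 77 genes the Spearman correlation between level and uniqueness was 0.13, given as a description over genes that share libraries. Of the 7 canonical genes below 500 CPM, Rpl27a and Rpl13a had 100% unique words. The others had fewer: 52.2% for Rpl15, 48.0% for Rpl29, 18.7% for Rpl24, 16.7% for Rps6 and 13.1% for Rpl10a. Like that of Rpl24, the values of Rps6 and Rpl10a are uncertain as levels of their mRNAs. Rps19, set against Rps6 above, had 70.7% unique words. In Rpl13a other genes overlapped 59.3% of the exon bases on the same strand, but 0% of the last 300. Besides Rpl24, 3 canonical genes had an exon overlapped on the same strand (Rpl13a, Rpl19 and Rps10), and for Rps10 the overlap covered 75.3% of the last 300 bases; it was counted at 822 ± 25.1 CPM (SD, n = 3).

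**Figure D2:**
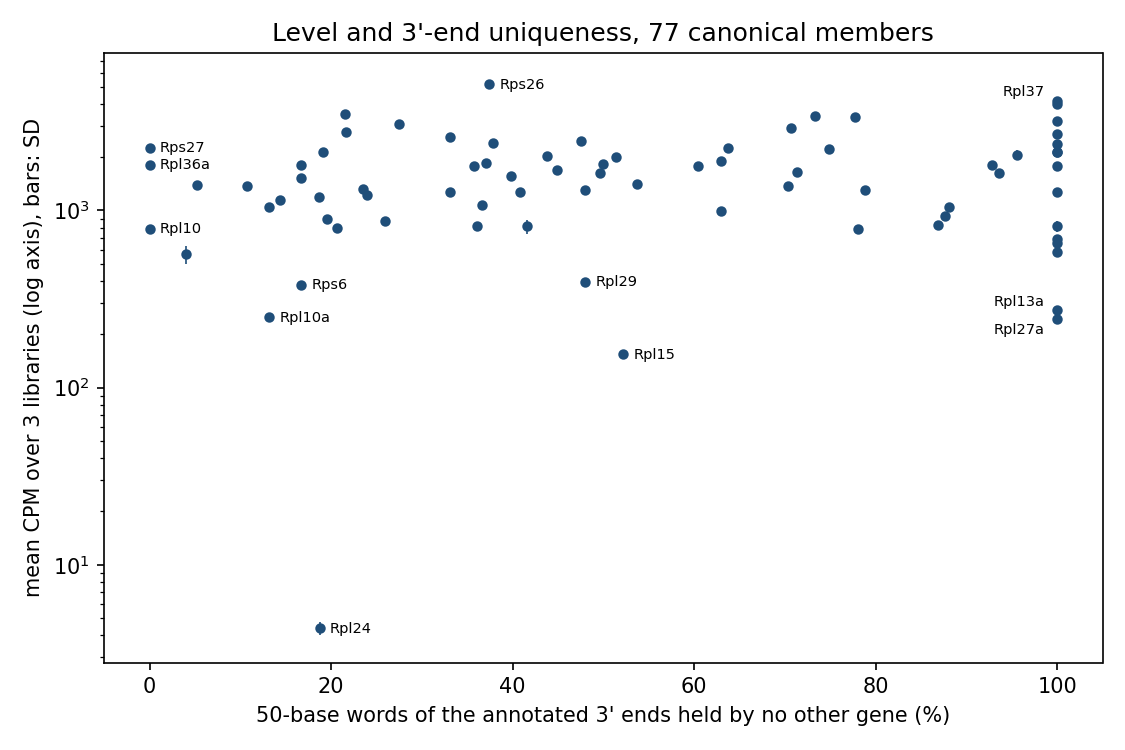
Mean CPM (log axis, bars are the SD over 3 libraries) of the 77 canonical genes against the percentage of 50-base words of their annotated 3′ ends that no other gene holds. Genes above 1000 CPM occur from 0 to 100% unique words; Rpl24 stands alone at 4.37 CPM, and Rps27, Rpl36a and Rpl10 are at 0% unique words with 786 to 2248 CPM.

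The paralogs split into expressed and nearly silent genes. Rps27l, a p53-inducible copy of Rps27, was at 832, 801 and 795 CPM beside 2274, 2181 and 2289 CPM for its parent, a ratio of parent to copy of 2.78 ± 0.0882 (SD, n = 3). Rpl7l1, a relative of Rpl7, was at 379.6, 366 and 357 CPM beside 852, 861 and 907 CPM, a ratio of 2.38 ± 0.150. Rpl22l1, whose transcript the Rpl22 protein represses, was at 132, 135 and 141 CPM beside 1037, 1054 and 1055 CPM for Rpl22, a ratio of 7.73 ± 0.205. These 3 copies were expressed in every library at well above the floor, and none overlapped its parent. Of the 3′-end words, 25.9% were in no other gene for Rpl7 and 97.6% for Rpl7l1. The values were 88.1% for Rpl22 and 38.8% for Rpl22l1, and 0% for Rps27 and 78.1% for Rps27l. These ratios of counts are therefore uncertain as ratios of mRNA levels.

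Of the other paralogs, 3 were below the floor and Rpl32l was low but above it. Rpl10l, a copy used in the testis that stands in for the X-linked Rpl10, had 0 counts in all libraries. The floor of 3 counts is 0.283 CPM over the pooled 10588955 counts. Rpl10 was at 759, 799 and 800.0 CPM. In pooled counts it was at least 2258-fold higher, by the lower end of the 95% counting interval. Rpl39l, the testis copy of the X-linked Rpl39, had 1 count, in replicate 2, and Rpl3l, the copy of Rpl3 made in heart and skeletal muscle, had 1 count, in replicate 3. Rpl39 was at 1294, 1276 and 1325 CPM and Rpl3 at 1328, 1292 and 1329.9 CPM. The pooled ratios were 13730 for Rpl39 over Rpl39l (95% counting interval 2464 to 542345) and 13926 for Rpl3 over Rpl3l (2499 to 550087). Rpl32l was at 3.87, 3.73 and 3.43 CPM, a pooled 39 counts against 36001 for Rpl32. Of the 3′-end words of Rpl32l, 78.9% were in no other gene and 17.9% were also in Rpl32. The part of Rpl32 reads in the Rpl32l counts was not tested.

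Of the 4 pseudogenes in the gene set, Rps12l1 had 0 counts, beside 1366, 1381 and 1448 CPM for Rps12, and Rpl6l had 2, 6 and 2 counts. Neither had a 3′-end word of its own (0% unique), so their counts cannot be read as their own level. Rps3a2 was at 13.7, 14.4 and 15.6 CPM and Rps3a3 at 8.34, 9.20 and 4.98 CPM, beside 1217, 1210.2 and 1219 CPM for the parent Rps3a1. The parent was 83.7 ± 5.30-fold above Rps3a2 (SD, n = 3). In Rps3a2, 29.1% of the 3′-end words were found in no other gene.

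Beyond these, the table listed 275 rows named as pseudogenes of these genes (a paralog, Rpl7l1, among them), with the suffix ps, and 255 of them had a count. They summed to 1331, 1292 and 1397 CPM, or 0.134 ± 0.00530% of all counts (SD, n = 3), against 12.8 ± 0.163% for the gene set. A mean of 10 CPM or more was reached by 32 rows, of which Rps26-ps1 was the highest at 65.4 ± 3.02 CPM, followed by Rpl31-ps8 at 61.1 ± 5.77 CPM, Rpl10-ps3 at 52.9 ± 8.22 CPM and Rps16-ps2 at 49.6 ± 10.6 CPM (SD, n = 3 each). Over the 62 families with such a row, the pseudogene rows held a median of 1.28% of the family's level, and more than 5% in 8 families: 12.9% for Rpl10a, 6.68% for Rps10, 6.51% for Rpl10, 6.34% for Rpl15, 5.71% for Rps6, 5.64% for Rps16, 5.55% for Rpsa and 5.47% for Rpl31. Among these 8 were 3 of the 7 scarce canonical genes, Rpl10a, Rpl15 and Rps6. A scarce parent raises the share by construction, so no link is read from this. The Rpl15 share came from 10.4 CPM of pseudogene rows, whereas 60.0 CPM gave 1.68% for Rps18. Transcription of a pseudogene and reads of the parent assigned to it cannot be told apart in these counts.

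**Figure D3:**
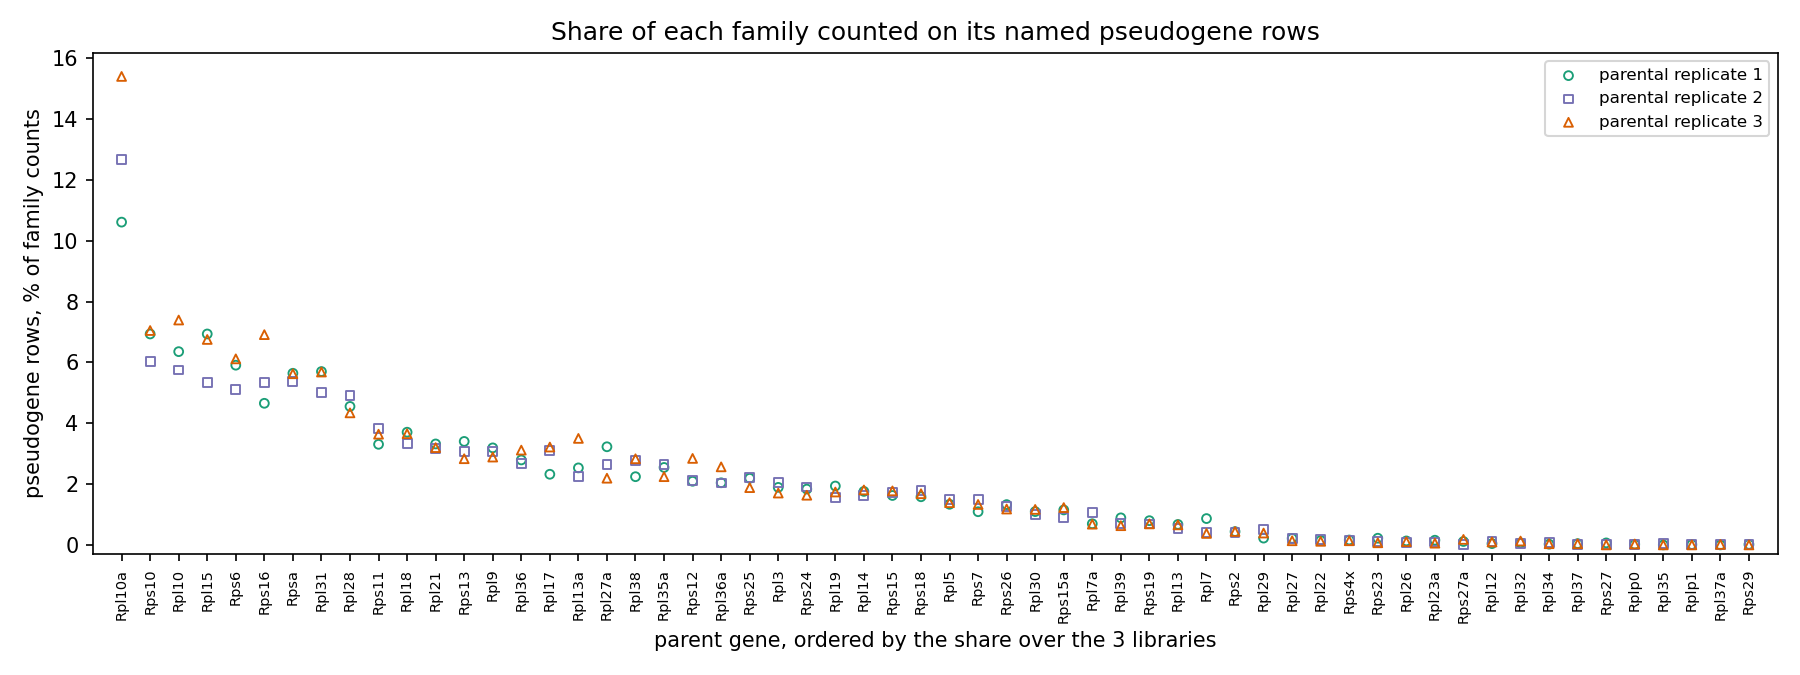
Share of each family's counts, in percent, that fell on its named pseudogene rows in the 3 parental libraries (1 mark per library), for families shown with a counted row, ordered by the share over all libraries. Rpl10a leads at 12.9%, 8 families exceed 5%, and the median over all 62 families is 1.28%.

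Equality of these levels across the 3 parental libraries was examined with a chi-square test on the counts of every gene whose expected count was 5 or more, scaled by median ratios, with Benjamini-Hochberg adjustment over 11118 genes. Of all genes tested, 2.8% had an adjusted p under 0.05. Among the 83 ribosomal protein genes tested, 31 did (37.3%). An unadjusted p under 0.05 was found in 44 of them, and in 13.2% of all genes tested. The test is more sensitive at high counts, so the count was read against genes of like level. At 1000 CPM or more, 28 of 55 ribosomal protein genes were called (50.9%) against 33 of 76 other genes (43.4%), and from 500 to under 1000 CPM 3 of 16 (18.8%) against 51 of 199 (25.6%). The shares were near the background at both levels, and nothing particular to the ribosomal protein genes is read from the count. By subunit, 15 of 49 large and 16 of 34 small genes were called. This split was not matched for level, with canonical medians of 1376 CPM (large) and 1649 CPM (small), and no subunit difference is read from it. The share over all genes set beside the lists below is likewise not matched for level. The other 5 genes (Rpl10l, Rps12l1, Rpl39l, Rpl3l and Rpl6l) had too few counts to be tested.

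The differences were small. The highest library exceeded the lowest by 1.04-fold to 1.25-fold among the 31 genes called, and by over 1.1-fold in 7 of them. Rpl35, a protein at the tunnel exit (chr2, minus strand, TOP tract above), differed most, at 609, 599 and 486 CPM (adjusted p = 4.21e-10). Replicate 3 was low, and replicates 1 and 2 lay close together. Of the 3′-end words of Rpl35, 3.98% were in no other gene and 96.0% were also in Gm2000. Gm2000 was at 183, 159 and 186 CPM, with replicate 3 its highest library and replicate 2 its lowest. The part of this shared sequence in the Rpl35 difference was not tested.

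Among the other large-subunit genes over 1.1-fold, Rpl35a, mutated in some human cases of Diamond-Blackfan anaemia, was at 889, 799.7 and 747 CPM (adjusted p = 2.64e-08), Rpl37a at 2194, 2013 and 1948 CPM (adjusted p = 1.81e-11) and Rpl17 at 2154, 1989 and 1949.5 CPM (adjusted p = 1.80e-08). All of these were highest in replicate 1 and lowest in replicate 3. Rpl6 went the other way, at 769, 792 and 883 CPM (adjusted p = 6.92e-05), with replicate 3 the highest. In the small subunit, Rps15 was at 1731, 1589 and 1551 CPM (adjusted p = 7.44e-08), again lowest in replicate 3, while Rps26 was highest there and lowest in replicate 2 (adjusted p = 1.40e-20). Of the 7 genes over 1.1-fold, 5 were lowest in replicate 3.

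Of the remaining large-subunit genes called, the X-linked Rpl36a was at 1885, 1844 and 1716 CPM, Rpl41, the smallest ribosomal protein, at 1905, 1812 and 1808 CPM, and Rpl34 at 2544, 2408 and 2443 CPM. These were highest in replicate 1. Rpl4 was at 2047, 2119 and 2229.9 CPM, Rpl8 at 2167, 2172 and 2303 CPM and Rpl13 at 1495, 1494 and 1598 CPM, all with replicate 3 on top. Rpl38, whose mutation in the mouse alters the translation of Hox mRNAs, was at 1324, 1222 and 1272 CPM, lowest in replicate 2 like Rpl37 and Rpl32. Adjusted p-values of these 9 genes ran from 2.40e-07 for Rpl37 and 3.21e-06 for Rpl32 to 0.0198 for Rpl41.

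Of the remaining small-subunit genes called, Rps24, mutated in some human cases of Diamond-Blackfan anaemia, was at 1896, 1809 and 1970.4 CPM. Rps20, Rps29 and Rps21 were at 1229, 1245 and 1324 CPM, 1969, 1935 and 2067 CPM and 2241, 2191 and 2308 CPM. All 4 had their highest value in replicate 3, as had Rps2 and Rps27 with the values given above. Rps4x was at 2412, 2477 and 2288 CPM and was the one gene called that was highest in replicate 2. Rps14, Rps18, Rps19 and Rps3 were highest in replicate 1. Adjusted p-values among these 11 genes ran from 2.59e-08 for Rps18 to 0.046 for Rps20.

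The highest library was replicate 1 for 16 of the 31 genes called, replicate 2 for 1 and replicate 3 for 14, and the lowest was replicate 1 for 5, replicate 2 for 15 and replicate 3 for 11. The commonest order, in 10 genes, was highest in replicate 1 and lowest in replicate 3, and in 5 genes it was the reverse. The same orders were not counted over other genes, and nothing particular to the ribosomal protein genes is read from them. Leaving out 1 library lowered the count of genes called to 15 (without replicate 1), 18 (without replicate 2) and 14 (without replicate 3), while the share of all genes called was 1.92%, 2.48% and 0.548%.

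**Figure D4:**
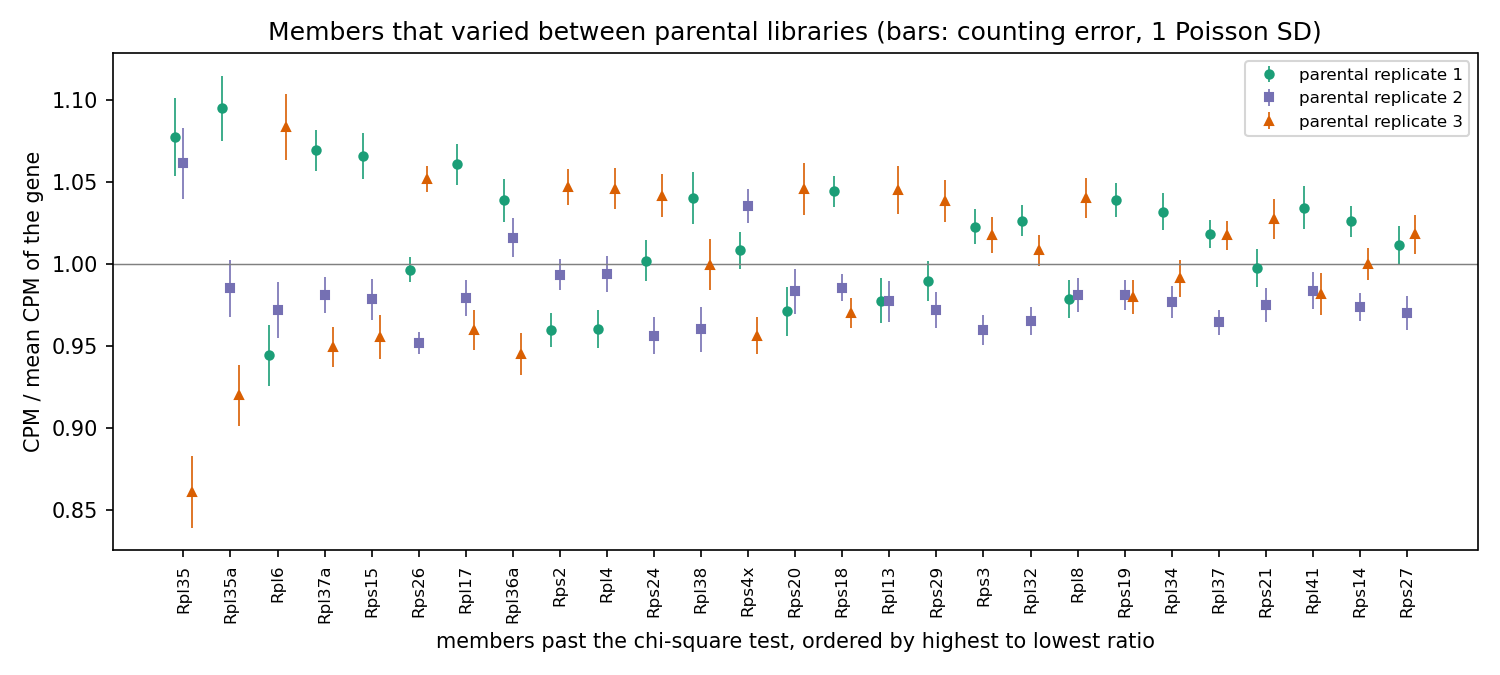
CPM of ribosomal protein genes called as varying, divided by the gene's mean over the 3 parental libraries, with bars of 1 Poisson SD of the count, ordered by the ratio of the highest to the lowest library. Rpl35 in replicate 3 lies farthest from its mean, and replicates 1 and 3 lie above the mean for different genes.

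Ribosomal components whose symbols fall outside the naming rule were measured beside the set. Rack1, the signalling scaffold on the small-subunit head, was at 2094 ± 32.3 CPM, and Fau, which encodes a ubiquitin-like protein fused to the small-subunit protein S30, at 1334 ± 35.8 CPM (SD, n = 3). Rpl36al was at 275 ± 1.32 CPM. In counts, its X-linked relative Rpl36a was 6.59 ± 0.328-fold higher. Of the 3′-end words, 100% were in no other gene for Rack1, 29.9% for Rpl36al, 19.3% for Fau and 0% for Rpl36a. Gm49383 overlapped 69% of the last 300 bases of Rpl36al on the same strand. Gm9843, at 143 CPM, held 80.7% of the Fau words. The part of shared sequence in these levels was not tested. Rps27a, a ubiquitin fusion within the set, was at 1039 ± 21.8 CPM. Of its 3′-end words, 13.1% were in no other gene, so this value is uncertain as a level of its mRNA. Of the 6 genes listed 5 were analysed, and 0 of 5 were called as varying, against 2.8% of all genes. The 2.8% covers every level. At 1000 CPM or more, where Rack1 and Fau lie, 43.4% of genes outside the set were called.

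The regulators of TOP mRNAs in the mTORC1 pathway were all expressed at 1 CPM or more (22 of 22), with a median of 79.4 CPM. The highest were Cnbp, a zinc-finger protein known in Xenopus to bind TOP mRNAs, at 1255 ± 33.7 CPM, the poly(A)-binding protein gene Pabpc1 at 1169.7 ± 41.9 CPM and Ssb, the La protein, at 628 ± 31.3 CPM (SD, n = 3). Larp1, the TOP-binding repressor, was at 112 ± 8.08 CPM, and Mtor, the kinase itself, at 17.5 ± 3.12 CPM. Of 21 genes tested 1 was called, against 2.8% of all genes. This was Eif4ebp2, an inhibitor of the cap-binding protein, at 98.2, 104 and 133 CPM with replicate 3 the highest (adjusted p = 0.00217).

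Chaperones, importins and assembly partners of the ribosomal proteins were all counted, at a median of 113 CPM, and 19 of 32 reached 100 CPM. Naca, the nascent-chain binding subunit at the tunnel exit, was at 924 ± 20.4 CPM, Eif6, which keeps the large subunit from joining too early, at 835 ± 11.0 CPM and the histone chaperone gene Nap1l1 at 762 ± 36.2 CPM (SD, n = 3). Tsr2, known from yeast as the escort of Rps26, the most abundant member, was at 61.0 ± 3.93 CPM. Of 32 genes 1 was called, against 2.8% of all genes. This was Gtpbp4, a GTPase of large-subunit assembly, at 177, 194 and 218 CPM with replicate 1 the lowest (adjusted p = 0.0429).

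Of the genes that link the 5S particle to p53, 9 of 10 were analysed and 0 of 9 were called by the chi-square test, against 2.8% of all genes. At 1000 CPM or more, where Rpl23 and Rpl11 lie, 50.9% of ribosomal protein genes were called. The highest 3 were the ribosomal proteins Rpl23 at 1800.3 ± 42.0 CPM, Rpl11 and Rpl5. Trp53, which encodes p53, was at 139 ± 5.87 CPM, and Mdm2, its ubiquitin ligase, at 27.4 ± 2.89 CPM (SD, n = 3). In the levels of mRNA, Rpl5 and Rpl11 were therefore above the ligase that their proteins bind, in all 3 libraries.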

How the data were processed

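The authors deposited raw counts for each gene from SCRB-seq reads. Per the file headers, untrimmed reads were aligned to GRCm38 by STAR 2.7.5b and counted on GENCODE M25, with Picard 2.18.26 and Drop-seq tools 1.12 also named. The sources used here do not say whether molecular identifiers were collapsed, whether strand was used or where reads fitting several genes were counted. Uncollapsed counts would add amplification noise that the intervals do not cover. The deposited annotation pairs barcodes with sample names, and it ties 3 columns to the parental replicates by genotype and number. The other 6 columns, 2 sets of 3, could not be tied to labelled samples and were not used, so the planned edgeR comparison of genotypes was not run.

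Counts were divided by library totals to give CPM. The chi-square test of counts used median-ratio scaling, an expected count of at least 5 per library and a false discovery rate of 0.05. TMM (edgeR 4.0.16) and DESeq2 1.42.0 size factors were alternatives. The 3′-end check used transcripts of GENCODE M21 and their last 300 bases, and the M21 models can differ from the M25 models used for counting. Start windows and gene positions are RefSeq's on GRCm38.p6. Work was done in Python 3.11.15 with pandas 2.3.3 and scipy 1.17.1.

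The genes, the lists and the tests were chosen with earlier results of these data known. Named with values in every library were the 10 highest genes, those under 1 CPM, those called, the paralogs with their parents, Rplp0, Rplp1, Rplp2, Rpsa, Rpl5, Rpl11, Rps6, Rpl13a, Rps19 and Rps3. From each other list the 3 highest were named. Some genes that this rule takes are not reported here or shown in the figures, although the sums and counts include them. Larp1, Mtor, Tsr2, Trp53, Mdm2, Rps10, Rpl15, Rpl10a, Rpl27a, Rpl29, Rpl24, the pseudogene rows and the 3′-end partners were named after their values were seen. A search for genes with a like profile needed at least 6 libraries and was not run. Protein sequences were not used here.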

Additional observations from a re-analysis of the deposited data

How the results depend on the processing

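Most values kept their size under TMM and DESeq2 size factors, as did 52 of the 52 gene levels rechecked. With totals that left out the 20 highest genes, 47 of these 52 levels moved, by the construction of those totals. The count of genes called as varying was 26 to 31 under library totals, TMM, totals without the 20 highest genes, expected counts of at least 1 or 20, and median ratios computed without the ribosomal protein genes. With 1 library left out it was 14 to 18, against 31 in all. It was 15 without replicate 1, 18 without replicate 2 and 14 without replicate 3, and 15, 16 and 14 of those were also called with all libraries; each such fit holds fewer samples. The share of all genes called was then 1.92%, 2.48% and 0.548%. The summed level rose to 141125 CPM when the 20 highest genes were left out of the totals and to 131933 CPM without ribosomal RNA and mitochondrially encoded genes, by the construction of those totals. The median over all 88 genes, taken in each library and averaged, was 1319 CPM, and over canonical genes alone 1514 CPM. The count at 1000 CPM or more was 55 to 57 under other scalings and with a library left out, the latter chosen after seeing the data, and 23 at a threshold of 2000 CPM. The ratio of the large to the small subunit was 1.16 without the highest gene of each.

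No paired analysis was possible because a single genotype, the parental cells, had usable columns. The other settings meant for the comparison of genotypes were not run for the same reason. Depth limits the scarce genes: below 0.283 CPM over the pooled counts a gene cannot be told from absent. The 3 libraries of 1 genotype give the spread between replicates and no effect of STING-N153S.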
